A study of Homo sapiens with 10 samples.

Results

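Genes that guide where B cells go in lymphoid tissue were followed in 2 human lymphoma lines that carried shRNAs against the transcription factor STAT3 or a control shRNA. The set holds 10 genes, chosen by symbol from the 25275 symbols that both expression tables share, and all 10 were found. It comprises 4 chemokine ligand genes (CCL3, CCL4, CCL17 and CCL22), 3 chemokine receptor genes (CXCR4, CXCR5 and CCR7) and 3 lipid receptor genes (S1PR1, S1PR2 and GPR183). TMD8 and OCI-LY10 are established cell lines of the activated B-cell-like kind of diffuse large B-cell lymphoma. All 6 RNA-seq libraries come from cells that carried a doxycycline-inducible shRNA, switched on for 2 days with 20 ng/ml doxycycline. In OCI-LY10, 1 library is labelled control shRNA, 1 STAT3 shRNA 10 and 1 STAT3 shRNA 16. The same 3 shRNAs are labelled in TMD8, but the 3 value columns of that table bear no name, so they are given by position and tied only to the line. The series also holds 4 STAT3 ChIP-seq samples, which are not analysed here.

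Chemokines are small secreted proteins that attract cells through G-protein-coupled receptors. In lymphoid organs CXCR5 draws B cells into follicles, CCR7 draws them towards the T-cell zone, and CXCR4 places dividing germinal centre B cells in the dark zone. GPR183, a receptor for oxysterols, moves activated B cells to the outer follicle. S1PR1 and S1PR2 bind the lipid sphingosine 1-phosphate (S1P): S1PR1 promotes exit into blood or lymph, and S1PR2 confines cells to the germinal centre. CCL3 and CCL4 are made by activated B cells and attract T cells and monocytes, and CCL17 and CCL22 attract T cells that carry CCR4.

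The targeted gene, STAT3, stood at 16.5 FPKM (a level per gene length and library size) in the OCI-LY10 control library, 11.1 under shRNA 10 and 10.6 under shRNA 16. Its log2 change was −0.56 (SE 0.10, limma adjusted p = 0.0465). It did not pass when 0.1 FPKM replaced 1 as pseudocount (limma adjusted p = 0.0508) or when low genes were kept (limma adjusted p = 0.0688), in a range of 0.0179 to 0.0688 over 9 alternative settings. The 3 TMD8 columns held 120.3, 24.3 and 22.5 FPKM of STAT3, in the order of the table.

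The libraries did not group by line. Over 11000 genes, Pearson's r of log2(FPKM + 1) was 0.994 between the 2 STAT3 shRNA libraries of OCI-LY10 and 0.845 between the control library and each of them. The control library of OCI-LY10 was closer to the 3 TMD8 columns, at 0.935, 0.938 and 0.960. The STAT3 shRNA libraries stood at 0.796 to 0.815 against the TMD8 columns. Genes at 5 FPKM or more in 1 library and 0.5 or less in another showed the same order. Between the control library and shRNA 10 they numbered 187 in one direction and 111 in the other, between the control library and the first TMD8 column 22 and 9, and between the 2 STAT3 shRNA libraries 0 and 1. Whether a library or a line was exchanged was not tested. The correlations run across genes, which are no replicates, and carry no p. Every OCI-LY10 difference below is therefore one between libraries as labelled, and STAT3 depletion cannot be told apart from any other difference between them. Leaving out the control library leaves no comparison. Relative to shRNA 10, sequencing depth was 1.52 in the control library and 0.73 with shRNA 16, and absolute depth is unknown. All 7 B-cell markers were at 1 FPKM or more in all 6 libraries. All 5 T-cell, 4 NK-cell, 6 myeloid and 3 erythroid markers stayed under 1 FPKM throughout, with CD3D, CD2, NCAM1, CD163, FCGR3A, MPO and HBB listed at 0. Some other markers moved with the groups. The summed level of the 7 B-cell markers was 837.8 FPKM with control shRNA, 2386 and 2642 under the STAT3 shRNAs, and 801.5 to 957.8 in TMD8. CD79A and CD79B carried most of that sum, while CD22 went the other way, from 62.1 FPKM to 23.0 and 29.3. The 5 plasma-cell markers summed to 39.6 FPKM against 84.5 and 86.7, and to 47.1 to 60.8 in TMD8. TNFRSF17 (1.57 FPKM against 39.8 and 35.0) and CD38 (2.04 against 8.89 and 10.6) were higher there, and SDC1 (3.87 against 0.251 and 0.301) was lower. The 4 epithelial markers summed to 34.8 FPKM with control shRNA, 5.48 and 5.98 under the STAT3 shRNAs, and 19.3 to 20.7 in TMD8. CDH1 carried that sum (32.6 FPKM against 0.0102 and 0), and EPCAM went the other way (0 against 4.39 and 4.39). The 4 dendritic-cell markers, nearly all CD1C, summed to 8.41 FPKM against 38.2 and 38.2, and to 0.661 to 0.888 in TMD8. The 4 stromal markers summed to 5.43 FPKM against 0.0615 and 0.145, and to 1.80 to 2.74 in TMD8. The part of these markers in the results below was not tested.

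**Figure D1:**
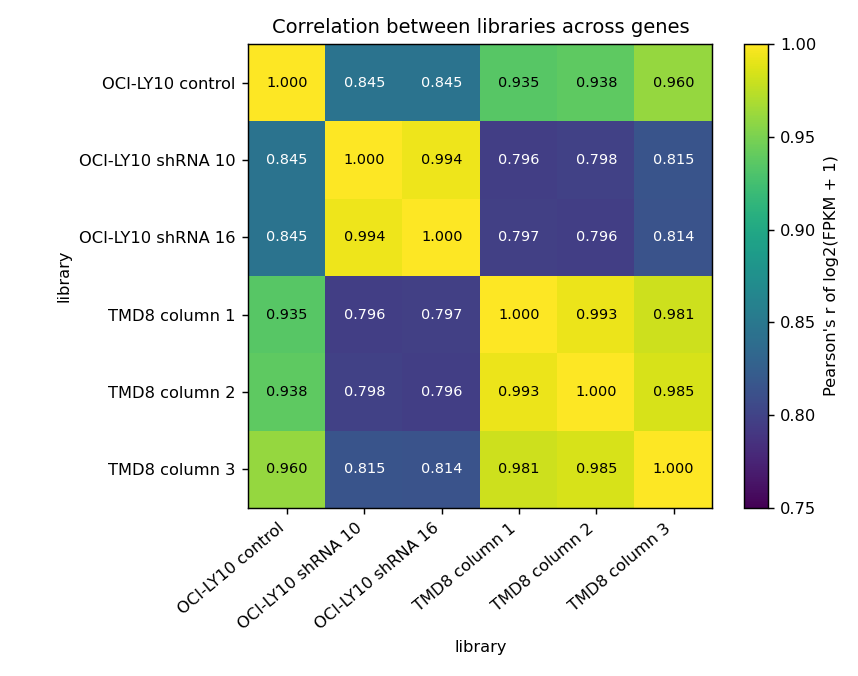
Each cell gives Pearson's r between a pair of the 6 libraries, computed on log2(FPKM + 1) of 11000 genes, with the colour following r. The 2 STAT3 shRNA libraries of OCI-LY10 are at 0.994 with each other, and the OCI-LY10 control library is at 0.935 to 0.960 with the 3 TMD8 columns.

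In OCI-LY10, 6 of the 10 genes were called lower under STAT3 shRNA than with control shRNA, namely all 4 ligands, CXCR4 and GPR183. CXCR5 was higher. CCR7 and S1PR1 did not pass the test, and S1PR2 was not tested because its mean over the 3 libraries was 0.940 FPKM, under the filter of 1 FPKM. The test set the 2 STAT3 shRNA libraries against the control with limma on log2(FPKM + 1), adjusted over 11162 genes, with a threshold of 0.05. Of the 9 genes tested, 6 were called lower and 1 higher, where 17.4% of all tested genes were called lower and 20.3% higher. The genes were chosen with earlier results of these data known, so these counts beside the shares are no test of the set. CCL17 and GPR183 passed the filter only through their level in the control library, so they had to differ to be tested, and the count of 6 includes both. The 2 shRNAs share the 1 control library, which has no replicate. The p-values rest on the spread between the 2 shRNA libraries, of the gene itself and, through limma, of the other tested genes. The spread between control libraries is not observed. In bulk RNA, fewer cells that express a gene and less RNA per cell cannot be told apart.

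**Figure D2:**
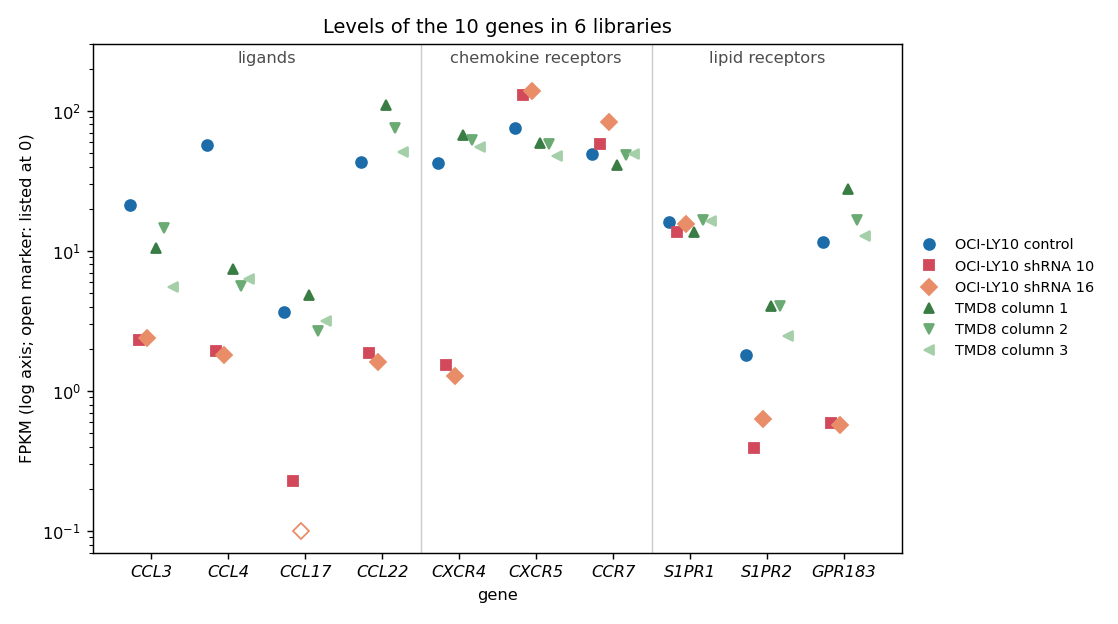
FPKM of the 10 genes (log axis) in the 3 OCI-LY10 libraries and the 3 unnamed TMD8 columns, 1 marker per library. The red and orange markers of the STAT3 shRNA libraries lie below all other libraries for 7 genes and above them for CXCR5 and CCR7, and CCL17 is listed at 0 with shRNA 16 (open marker).

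The ligand genes were low with both shRNAs. Together they summed to 125.0 FPKM with control shRNA, 6.34 under shRNA 10 and 5.82 under shRNA 16, against 132, 97.8 and 66.1 in the TMD8 columns. CCL22, a ligand of CCR4, was at 43.3 FPKM with control shRNA, against 1.87 under shRNA 10 and 1.62 under shRNA 16. The shRNA mean of 1.74 ± 0.183 (SD, n = 2) was 24.8-fold below the control, a log2 change of −4.01 (SE 0.12, limma adjusted p = 0.00733). In TMD8 it was at 109.5, 75.0 and 51.1 FPKM, so the control library of OCI-LY10 lay below and the shRNA libraries far below every TMD8 column. The upstream sequence of CCL22 is shown because it alone among the genes with an entry held a match to the kB motif, the binding motif of NF-kB factors. It covers the 250 bases before the start of transcription at chr16:57358533-57358782 (plus strand, GRCh38.p14, RefSeq). The motif is in capitals and begins 185 bases upstream of the start.
CCL22: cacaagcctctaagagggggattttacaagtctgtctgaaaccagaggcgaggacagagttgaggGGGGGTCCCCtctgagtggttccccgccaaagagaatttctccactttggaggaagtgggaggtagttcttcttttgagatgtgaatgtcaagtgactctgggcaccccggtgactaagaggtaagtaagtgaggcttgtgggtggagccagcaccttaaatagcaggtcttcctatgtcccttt

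CCL17, the other CCR4 ligand, was the lowest of the ligand genes. Control cells held 3.69 FPKM and shRNA 10 cells 0.229, and it was listed at 0 under shRNA 16. The TMD8 columns held 4.84, 2.69 and 3.17 FPKM, a range that contains the OCI-LY10 control library and none of the shRNA values. On the log2(FPKM + 1) scale the change was −2.08 (SE 0.17, limma adjusted p = 0.0173). It did not pass when 0.1 FPKM replaced 1 as pseudocount (log2 change −4.38, limma adjusted p = 0.0637) or when low genes were kept (limma adjusted p = 0.0528), in a range of 0.00326 to 0.0637 over 7 settings. CX3CL1, the membrane-bound chemokine fractalkine, is the one protein-coding gene between CCL22 and CCL17 in the RefSeq order. It also was lower, at 10.1 FPKM with control shRNA against 0.153 and 0.126, a log2 change of −3.29 (SE 0.08, adjusted p = 0.00722).

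CCL3 and CCL4 have near-identical gene copies, so their values are uncertain wherever reads could be split between copies. CCL4, which attracts T cells and monocytes, was at 56.6 FPKM with control shRNA, against 1.93 under shRNA 10 and 1.81 under shRNA 16. The mean of 1.87 ± 0.0867 (SD, n = 2) was 30.3-fold below the control in FPKM. The log2(FPKM + 1) change was −4.33 (SE 0.11, limma adjusted p = 0.00711). In TMD8 it was at 7.47, 5.63 and 6.27 FPKM. CCL4 was thus far higher in the OCI-LY10 control library than in any TMD8 column, whereas CCL22 was lower there. CCL3, a ligand of CCR1, was at 21.4 FPKM with control shRNA, against 2.31 under shRNA 10 and 2.40 under shRNA 16. Its log2(FPKM + 1) change was −2.74 (SE 0.10, limma adjusted p = 0.00773). The shRNA mean of 2.35 ± 0.0627 (SD, n = 2) was 9.11-fold below the control in FPKM. The TMD8 columns held 10.5, 14.5 and 5.50 FPKM, and so all lay between the control and the shRNA libraries of OCI-LY10. The copies were listed at low values. CCL3L3 was at 0.647 FPKM and CCL4L2 at 1.10 in the control library and both at 0 with the shRNAs, while CCL3L1 reached 0.00340 at most. CCL4L1 was listed at 0 in all 6 libraries. The upstream sequence of CCL3 is shown for comparison with that of CCL22. It covers 250 bases at chr17:36090144-36090393 (minus strand, GRCh38.p14, RefSeq), before the outermost of 3 listed starts. Capitals mark TATAA, the core letters of a TATA box, which begin 213 and 29 bases upstream of the start.
CCL3: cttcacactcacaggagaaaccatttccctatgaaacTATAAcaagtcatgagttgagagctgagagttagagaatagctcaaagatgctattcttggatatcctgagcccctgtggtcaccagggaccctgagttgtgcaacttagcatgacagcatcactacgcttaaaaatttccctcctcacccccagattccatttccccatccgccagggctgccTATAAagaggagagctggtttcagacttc

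Among the chemokine receptors, CXCR4 and CXCR5 moved in opposite directions. CXCR4, the receptor of the stromal chemokine CXCL12, was at 42.4 FPKM with control shRNA, against 1.54 under shRNA 10 and 1.27 under shRNA 16. The mean of 1.40 ± 0.188 (SD, n = 2) was 30.2-fold below the control in FPKM. The log2(FPKM + 1) change was −4.18 (SE 0.13, limma adjusted p = 0.00733). In TMD8 it was at 66.9, 62.3 and 55.3 FPKM, with all columns above every OCI-LY10 library. CXCR5, the receptor of the follicular chemokine CXCL13, was at 76.0 FPKM with control shRNA, against 129 under shRNA 10 and 138 under shRNA 16. The mean of 133 ± 6.19 (SD, n = 2) was 1.75-fold above the control in FPKM. The log2(FPKM + 1) change was 0.80 (SE 0.10, limma adjusted p = 0.0259). It did not pass when low genes were kept (limma adjusted p = 0.0525), in a range of 0.00431 to 0.0525 over 9 settings. In TMD8 it was at 59.0, 58.4 and 47.7 FPKM, so both shRNA libraries stood above the other 4 libraries. The ratio of CXCR5 to CXCR4, both per length, was 1.79 in the control library, 83.8 under shRNA 10, 108.3 under shRNA 16 and 0.862 to 0.939 in the TMD8 columns.

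The upstream sequences of this pair are shown because their levels parted. That of CXCR4 lies at chr2:136118150-136118399 (minus strand, the outermost of 3 listed starts), with TATAA in capitals 30 bases upstream of the start. That of CXCR5 lies at chr11:118893142-118893391 (plus strand), with none of the searched motifs. Both are 250 bases long and come from RefSeq on GRCh38.p14.
CXCR4: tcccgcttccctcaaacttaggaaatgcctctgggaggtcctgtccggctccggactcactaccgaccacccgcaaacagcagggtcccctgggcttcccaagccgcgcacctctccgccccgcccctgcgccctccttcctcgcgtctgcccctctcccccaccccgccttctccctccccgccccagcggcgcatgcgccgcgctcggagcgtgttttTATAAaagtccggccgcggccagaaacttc
CXCR5: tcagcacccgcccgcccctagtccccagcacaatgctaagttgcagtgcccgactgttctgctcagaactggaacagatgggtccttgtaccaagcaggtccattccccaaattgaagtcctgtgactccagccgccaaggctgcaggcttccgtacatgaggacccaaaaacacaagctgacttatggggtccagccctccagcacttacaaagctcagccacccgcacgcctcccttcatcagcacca

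Upstream windows of 250 bases were listed for 7 of the 10 genes, with 11 starts in all. Those of CCL4, CCL17 and CCR7 were not listed. The STAT motif TTCNNNGAA, which reads the same on both strands, was in 0 of these 11 windows and in 6.57% of 35116 windows of all genes. The kB motif, searched on both strands, was in 1 of the 11, that of CCL22, and in 5.21% of all windows. TATAA, searched on the gene's strand, was in 13.6% of all windows. Among the 11 windows it was in 1 window of each of 3 genes (CCL3, CXCR4 and GPR183). No 2 matches overlapped. These matches describe letters in a short window and show no binding.

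CCR7, the receptor of CCL19 and CCL21, was at 48.9 FPKM with control shRNA, against 57.9 under shRNA 10 and 82.7 under shRNA 16. The 2 shRNA libraries differed by 1.43-fold, and the log2 change from control of 0.49 (SE 0.28) did not pass (limma adjusted p = 0.265). In TMD8 it was at 41.3, 48.2 and 49.1 FPKM, close to the OCI-LY10 control library and below both shRNA libraries.

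The lipid receptors went different ways. GPR183 was at 11.6 FPKM with control shRNA, against 0.596 under shRNA 10 and 0.571 under shRNA 16. The mean of 0.583 ± 0.0176 (SD, n = 2) was 19.9-fold below the control in FPKM. The log2(FPKM + 1) change was −2.99 (SE 0.09, limma adjusted p = 0.00733). That change was −4.10 with a pseudocount of 0.1 FPKM and −1.57 with 5 FPKM. The shRNA levels lie under the pseudocounts of 1 and 5 FPKM, which shrinks the change. The call held (limma adjusted p of 0.000101 to 0.0271 over 8 settings). In TMD8 it was at 27.5, 16.6 and 12.8 FPKM, above every OCI-LY10 library.

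S1PR1 was nearly level over all 6 libraries. It was at 16.0 FPKM with control shRNA, 13.7 under shRNA 10, 15.5 under shRNA 16, and 13.6, 16.5 and 16.4 in the TMD8 columns. Its log2 change of −0.13 (SE 0.13) did not pass (limma adjusted p = 0.475), which does not show that the groups were equal, and 84.2% of tested genes had a larger absolute change. S1PR2 was at 1.80 FPKM with control shRNA, 0.390 under shRNA 10, 0.629 under shRNA 16, and 4.06, 4.02 and 2.46 in TMD8. Both shRNA libraries lay below the other 4. The difference of −0.90 on the log2(FPKM + 1) scale was not tested with the filter in place, and without it did not pass (limma adjusted p = 0.0903). The ratio of S1PR1 to S1PR2, per length, was 8.90 with control shRNA, 35.2 and 24.6 under the STAT3 shRNAs and 3.36 to 6.67 in TMD8.

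**Figure D3:**
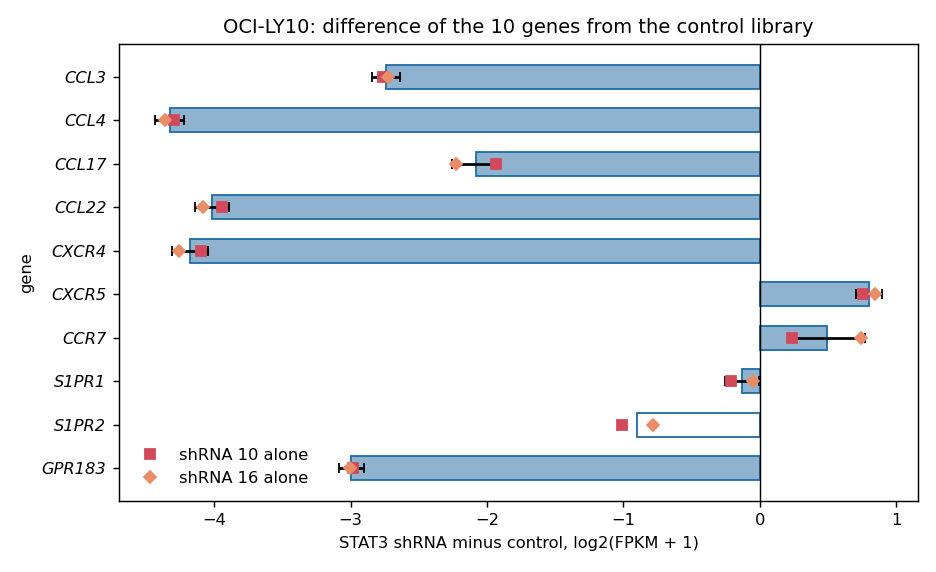
Difference of the 10 genes between the STAT3 shRNA libraries and the control library of OCI-LY10 on the log2(FPKM + 1) scale, with bars for the mean of the 2 shRNAs, error bars for the limma SE and points for each shRNA against the same control library. CCL4, CXCR4 and CCL22 are near −4, CXCR5 is at 0.80, and S1PR2 (white bar) was not tested.

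On the log2(FPKM + 1) scale, the size of the differences varied between the genes. An absolute change larger than that of CCL4 was seen in 1.24% of tested genes, than that of CXCR4 in 1.45%, CCL22 in 1.59%, GPR183 in 3.56%, CCL3 in 4.35% and CCL17 in 7.79%. For CXCR5 that share was 31.5% and for CCR7 49.7%. This order depends on the pseudocount of 1 FPKM. With 0.1 FPKM the log2 change was −4.38 for CCL17, −4.10 for GPR183 and −3.13 for CCL3. CCL17 and GPR183 also passed the filter only through the control library. The median log2 change over all tested genes was 0.06. Both shRNAs gave each gene the same direction. They were set against the same control library and their own libraries correlated at 0.994, so this is no independent support. The share over all tested genes was not computed. The log2 changes with shRNA 10 and shRNA 16 were −4.30 and −4.36 for CCL4, −3.95 and −4.08 for CCL22, and −4.10 and −4.26 for CXCR4. Values for CXCR5 were 0.75 and 0.85. On the log2(FPKM + 1) scale, the widest gap between shRNAs was that of CCR7, at 0.24 and 0.74. As a fold of FPKM, shRNA 16 over shRNA 10, S1PR2 stood at 1.61 and CCR7 at 1.43. CCL17 has no such fold, being listed at 0 under shRNA 16.

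Levels per length ranked the genes differently in each group. In the control library CXCR5 was highest, followed by CCL4, CCR7, CCL22, CXCR4, CCL3, S1PR1, GPR183, CCL17 and S1PR2. With 1 control library, no spread can be set beside that order. In the shRNA libraries CXCR5 was highest, followed by CCR7 and S1PR1, and the other 7 genes were under 3 FPKM. Among those, CCL4 and CCL22 overlapped, as did GPR183 and S1PR2, and CCL17 was lowest in both libraries. In TMD8 the ranges of CCL22, CXCR4 and CXCR5 overlapped at the top, and CXCR5 also overlapped CCR7. GPR183, S1PR1 and CCL3 formed overlapping neighbours below them, then CCL4 overlapped CCL3. CCL17 and S1PR2 overlapped at the bottom, under every CCL4 value.

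Within TMD8, the highest of the 3 columns exceeded the lowest by 1.19-fold for CCR7, 1.21-fold for CXCR4 and S1PR1, and 1.24-fold for CXCR5. Receptors of chemokines were thus the steadiest genes across these columns, together with S1PR1. CCL3 varied most, by 2.63-fold, followed by GPR183 at 2.15-fold and CCL22 at 2.14-fold. For 7 of the 10 genes the columns stayed within 2-fold, as they did for 91.5% of the genes tested in OCI-LY10. The first column was the highest for 7 genes (CCL4, CCL17, CCL22, CXCR4, CXCR5, S1PR2 and GPR183), and the third was the lowest for 6. How often this holds over all tested genes was not computed, so these counts do not set the genes apart. No test was made within TMD8, because the columns are not tied to an shRNA.

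Across tables, 3 of the 10 genes (CCL17, CCR7 and S1PR1) had an OCI-LY10 control value inside the TMD8 range. The share of all tested genes with such a value was not computed, so this count does not set the genes apart. Both shRNA libraries were below the other 4 libraries for 7 genes (all but CXCR5, CCR7 and S1PR1). Counting the 9 tested genes alone gives 6, where 30.5% of all tested genes were below. For CXCR5 and CCR7 both were above, as for 34.7% of all tested genes, and for S1PR1 they overlapped. Since the genes were chosen with earlier results known, these shares are no test of the set either. The tables may have been normalized separately, so levels across them were not tested.

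Further genes of the same pathways, in 7 lists, were read against the shares over all tested genes, which were 20.3% called higher and 17.4% called lower. These genes too were chosen with earlier results of these data known. Of their 27 calls, 10 went to genes that passed the filter through 1 group alone and so had to differ to be tested. These were CXCL10, CX3CL1, HSD3B7, RGS16, RGS18, CD69 and ITGA4 through the control library, and CCRL2, KLF2 and BACH2 through the STAT3 shRNA libraries. CXCL10, RGS18 and ITGA4 were listed at 0 with both shRNAs, which can be a failed estimate. Their own spread between the shRNA libraries was 0, so their p-values rest on the spread of the other tested genes, through limma.

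Most other chemokine genes were listed at 0 or stayed under the filter. Of 36 further ligand genes in the table, 21 were listed at 0 in all 6 libraries and 4 passed the filter. CXCL10, an interferon-induced ligand of CXCR3, was at 20.0 FPKM in the control library, listed at 0 with both shRNAs and at 21.9 to 33.8 in TMD8 (limma adjusted p = 0.00676 in OCI-LY10). CXCL10 and CX3CL1 were called lower. CCL28, a mucosal chemokine, was at 0.101 FPKM against 2.62 and 5.06 and did not pass (limma adjusted p = 0.0506), nor did CCL5 (0.647 against 1.10 and 1.64, adjusted p = 0.139). Among 20 other chemokine receptor genes only CCRL2 passed the filter. It was called higher, at 0.379 FPKM against 1.32 and 1.63, and lost its call without the filter (limma adjusted p = 0.0772, in a range of 0.00891 to 0.0772).

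Of 6 tested genes of S1P receptors and turnover, 2 were called higher, 3 lower and 1 not at all. SPHK1, a kinase that makes S1P, was at 3.29 FPKM with control shRNA, 27.0 and 26.7 under the STAT3 shRNAs and 3.66 to 5.30 in TMD8, a log2 change of 2.70 (SE 0.10, limma adjusted p = 0.00755). SGPP1, a phosphatase that removes S1P, was at 10.7 FPKM against 34.5 and 34.6 and was called higher (limma adjusted p = 0.0112). SGPP2, a related phosphatase, was at 14.2 FPKM against 7.42 and 7.06 and was called lower (adjusted p = 0.0253). PLPP1, a lipid phosphatase listed under its older symbol PPAP2A, fell from 11.8 to 4.73 and 4.09 FPKM, and lost its call without the filter (limma adjusted p = 0.0583, in a range of 0.00168 to 0.0583).

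CH25H and CYP7B1, the enzymes that make the oxysterol ligand of GPR183, were listed at 0 in all 6 libraries. HSD3B7, which degrades that ligand, was at 4.25 FPKM with control shRNA, 0.337 and 0.423 under the STAT3 shRNAs and 1.99 to 2.96 in TMD8 (log2 change −1.93, SE 0.09, limma adjusted p = 0.00969). It was the one call among 3 tested genes of that list. The transporter gene ABCC1 was at 17.6 FPKM against 21.0 and 22.4, and the receptor gene P2RY10 at 8.91 against 11.3 and 11.9. Neither passed (adjusted p = 0.135 and 0.101). P2RY8, a receptor that confines germinal centre B cells, was listed at 0 in all 6 libraries, which can be a failed estimate. These 3 genes at 0 were picked after their values were seen.

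Of 22 tested genes of receptor coupling and desensitization, 2 were called higher and 5 lower. GNA13, the G-protein subunit through which S1PR2 acts, was at 18.7 FPKM with control shRNA, 37.6 and 36.5 under the STAT3 shRNAs and 30.7 to 33.8 in TMD8 (log2 change 0.95, limma adjusted p = 0.0198). GNG2, another G-protein subunit, was at 12.6 FPKM against 41.7 and 46.0 and was called higher (adjusted p = 0.0137). RGS18 and RGS16, which switch off G-protein signals, were called lower. RGS18 was at 4.06 FPKM in the control library, listed at 0 with both shRNAs and at 6.73 to 9.11 in TMD8 (adjusted p = 0.00733). RGS16 was at 6.01 FPKM against 0.254 and 0.665, and lost its call without the filter (limma adjusted p = 0.0646, in a range of 0.000669 to 0.0646).

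All 14 transcription factors and surface proteins tied to B-cell positioning were tested, with 5 called higher and 6 lower. The integrin subunit genes ITGA4 and ITGB7, whose products pair with each other, parted. ITGA4 was at 19.0 FPKM in the control library, listed at 0 with both shRNAs and at 15.8 to 16.8 in TMD8, and ITGB7 at 2.77 against 48.8 and 56.3 (2.65 to 5.21 in TMD8). BACH2, which holds back plasma cell formation, was at 0.0833 FPKM against 13.1 and 15.0, with a TMD8 range of 0.139 to 0.292 (limma adjusted p = 0.00755). KLF2, an activator of S1PR1 transcription, and CD69, which removes S1PR1 from the surface, were picked after their values were seen. KLF2 was at 0.685 FPKM against 7.01 and 6.29 and was called higher (limma adjusted p = 0.0111). Its TMD8 range of 2.84 to 11.2 contained both shRNA values and not the control. CD69 was at 1.95 FPKM against 0.704 and 0.744 (1.63 to 2.11 in TMD8). It was called lower (limma adjusted p = 0.0215), beside the nearly level S1PR1.

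**Figure D4:**
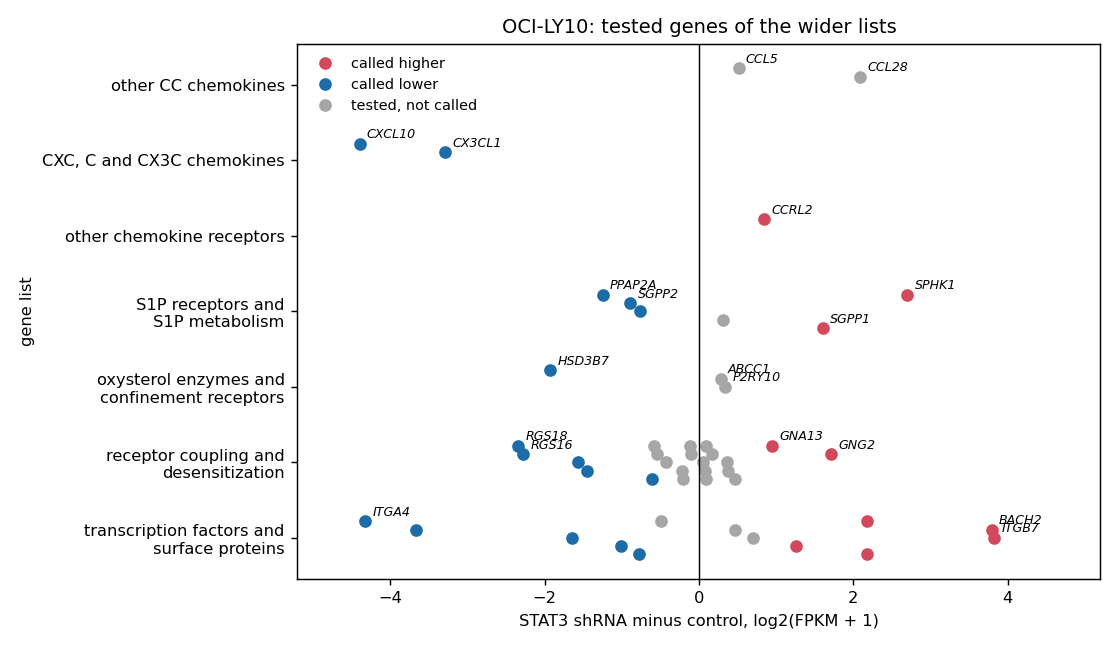
Difference between the STAT3 shRNA libraries and the control library of OCI-LY10 on the log2(FPKM + 1) scale for 49 of the 50 tested genes of the wider lists, 1 point per gene, red where called higher, blue where called lower and grey where not called. CXCL10 and ITGA4 lie furthest to the left, and ITGB7 and BACH2 furthest to the right.

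Over all wider lists and the near-identical copies of CCL3 and CCL4, 119 of 121 genes were in the table, 28 of them at 0 in all 6 libraries. Of 50 tested, 10 were called higher, 17 lower and 23 not at all, where 20.3% and 17.4% of all tested genes were called higher and lower. Their median log2 change was −0.02, beside 0.06 over all tested genes.

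Genes of similar pattern were sought by the Euclidean distance of log2(FPKM + 1) over the 6 libraries, for the 7 members whose OCI-LY10 mean reached 5 FPKM, among genes reaching 1 FPKM. The 2 nearest to CXCR4 were S100A10 (distance 0.641) and VSNL1 (0.665), which are genes of calcium-binding protein families. S100A10 was at 44.1 FPKM with control shRNA, 0.719 and 0.985 under the STAT3 shRNAs and 56.1 to 73.5 in TMD8. For CCL22 they were RHOF (1.03) and S100A10 (1.12), for CCL3 WDR81 (0.648) and TMC8 (1.21), and for CCL4 ENDOV (1.16) and GNG8 (1.58). CXCR5 was nearest to SLC29A1 (0.397) and SEC61A1 (0.483), and CCR7 to OS9 (0.301) and LASP1 (0.352). The level gene S1PR1 had the closest neighbours, POGZ (0.172) and FAM204A (0.182). These distances are descriptions over 6 libraries of unequal depth from 2 tables.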

How the data were processed

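RNA-seq was read from 6 libraries of 2 lines. The authors deposited FPKM values, 1 per gene and library. TopHat, Bowtie2 and hg19 are named per the submitters' processing notes, without versions or roles, and the tool that computed FPKM, its annotation and its strand setting were not given in the sources used here. OCI-LY10 columns were matched to samples by name. TMD8 columns have no header and were matched only to the line, so 0 columns were left out. Each table had 25277 rows and 25275 symbols, and 2 repeated symbols were summed.

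The 11162 genes averaging 1 FPKM or more in OCI-LY10 were fitted with limma 3.58.1 in R 4.3.3, on log2(FPKM + 1) with a mean-variance trend, two-sided, Benjamini-Hochberg adjustment and 1 residual and 1.64 prior degrees of freedom. This scale understates the change of low genes. Correlations left out small RNA genes and required a mean of 1 FPKM over the 6 libraries. Depth came from the commonest ratio of values under 0.1 FPKM. FPKM gives no counts, so no counting interval is given. Alternatives were other pseudocounts, filters, scalings and variance models. Members, lists and tests were chosen with earlier results of these data known. Genes outside the set are named by rule: per list up to 2 of the highest and 2 of the lowest log2 changes among tested genes, all copies, and the 2 nearest patterns. Of these, 1 gene is not reported here. KLF2, CD69, CH25H, CYP7B1, P2RY8 and the markers are named outside that rule. Symbols were matched to RefSeq (GRCh38.p14) by name. No label says that libraries came from separate cultures.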

Additional observations from a re-analysis of the deposited data

How the results depend on the processing

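For the 9 tested genes of the set, 75 of 78 recomputed tests kept their direction and their side of the threshold and 3 lost the call: CCL17 with a pseudocount of 0.1 FPKM (log2 change −4.38) and without the filter on low values (−2.08), and CXCR5 without the filter (0.80). No change reversed under these alternatives. The number of the 10 genes called higher was 1, and 0 of 10 without the filter (limma). Over all genes, calls higher went from 2263 to 1299 without the filter, where genes at 0 in all 3 libraries were left out. Calls lower went from 1943 to 1178 with a filter of 5 FPKM on the mean, where 8032 genes were tested. With genes listed at 0 in any library left out, 3037 of 10809 genes were called higher and 2402 lower. The shares over all tested genes therefore move in both directions with the setting. Of 27 calls in the wider lists, 19 held under every alternative that tested the gene and 8 were lost under at least 1. With 1 shRNA library left out, each shRNA against control has no test, and its values stand in the report for CCL4, CCL22, CXCR4, CXCR5 and CCR7. No paired analysis was possible because OCI-LY10 has 1 control library and the TMD8 columns carry no numbers. Depth may limit CCL17, S1PR2 and GPR183, which were under 1 FPKM in both STAT3 shRNA libraries. Without counts, how far it does is unknown.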
